A study of Homo sapiens with 6 samples.

Results

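Intragenic SMARCA4 peaks just downstream of promoters were taken from the hg19 peak list of K562 cells, an established human chronic myelogenous leukaemia line. A peak was a member when its midpoint lay 1 to 5 kb downstream of the 5' end of a protein-coding gene record, inside that gene, outside coding sequence and more than 1 kb from the start of every protein-coding transcript. Of the 28265 peaks, 1256 (4.44%) met the rule. The mirror window, 1 to 5 kb upstream of a gene's 5' end and under the same distance from other starts, held 1324 peaks (4.68%). A further 5949 peaks (21.0%) were deep intragenic, inside a protein-coding gene, outside coding sequence and more than 5 kb from every protein-coding gene and transcript start, and 8908 (31.5%) lay within 1 kb of a gene's 5' end. SMARCA4 was immunoprecipitated from K562 chromatin crosslinked with disuccinimidyl glutarate and then formaldehyde, and the samples are 3 ChIP libraries and 3 input libraries, which hold the same kind of chromatin without the antibody step. The series description names the replicates technical and counts 1 input, whereas the paper names them biological and the sample labels list 3 inputs, so which input served each peak call is not settled here. A region entered the deposited list when at least 2 of the 3 replicates called it, and each peak is known by its 2 end positions. Neither a height nor a value per replicate stands behind a peak, and no spread over replicates can be computed. All intervals below are 95% intervals that cover counting error, and neighbouring peaks are not independent replicates.

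SMARCA4, also called BRG1, is an ATPase subunit of the SWI/SNF complex, which uses ATP to slide or evict nucleosomes and so opens DNA to transcription factors. The first kilobases of a gene are mostly intron and hold a mixture of elements. They can carry the trailing edge of the CpG island that covers many promoters, alternative starts, and enhancers, to which in red cell precursors the factor GATA1 binds, often beside an E-box bound by TAL1. G-quadruplexes (G4s) are stacked structures that guanine-rich DNA can fold into, and the ChIP-seq experiment was made to compare SMARCA4 binding with them.

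The sequences below show GATA elements that some members in red cell genes held. Of the 19 members in the red cell lists described further on, 11 held such a motif in their central 200 bp. The composite form was in 5 of them. Over all members the shares were 45.4% for the motif and 9.55% for the composite. In 200-bp windows spaced through the sequence open to members they were 30.3% and 1.37%. ALAS2, the erythroid enzyme of the first step of heme synthesis, had a member of 462 bp in intron 1 at chrX:55054404-55054865. Its central 300 bases, chrX:55054485-55054784, are given on the minus strand, which is the coding strand of the gene. The capitals mark the single GATA motif of this stretch, which reads AGATAA on the other strand.
ALAS2: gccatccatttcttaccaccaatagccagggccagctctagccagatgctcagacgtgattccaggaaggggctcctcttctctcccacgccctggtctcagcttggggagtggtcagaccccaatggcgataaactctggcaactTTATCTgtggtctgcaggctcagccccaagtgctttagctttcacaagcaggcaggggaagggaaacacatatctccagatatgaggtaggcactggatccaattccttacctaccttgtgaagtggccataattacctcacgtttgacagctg

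Composites of CTG, which is a part of an E-box, a spacer of 7 or 8 bases and a GATA motif are shown next, with both parts in capitals and each 5' to 3' on the strand of the motif in hg19. They come from 6 members in genes of heme synthesis, the red cell membrane and platelets. ALAS2 carried its composite on the plus strand at chrX:55054607-55054653. FECH, the enzyme that inserts iron to complete heme, carried it on the plus strand at chr18:55250673-55250719. ABCB10, a mitochondrial transporter needed for heme synthesis, carried it on the minus strand at chr1:229690979-229691025. FLVCR1, a heme exporter, carried it on the minus strand at chr1:213033546-213033591. SLC4A1, the band 3 anion exchanger of the red cell membrane, carried it on the plus strand at chr17:42344061-42344107. TUBB1, the platelet form of beta-tubulin, carried it on the plus strand at chr20:57596219-57596265.
ALAS2: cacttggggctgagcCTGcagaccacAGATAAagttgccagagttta
FECH: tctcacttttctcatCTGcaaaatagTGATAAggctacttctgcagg
ABCB10: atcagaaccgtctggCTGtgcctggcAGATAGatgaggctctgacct
FLVCR1: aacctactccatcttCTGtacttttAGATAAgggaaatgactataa
SLC4A1: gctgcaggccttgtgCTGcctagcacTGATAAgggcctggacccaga
TUBB1: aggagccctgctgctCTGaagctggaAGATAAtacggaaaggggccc
The spacer was 7 bases in FLVCR1 and 8 bases in the others.

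In 5 further red cell genes a member held a GATA motif without the composite in the central 200 bp. The motif nearest the peak centre is shown in capitals with its flanks. ZFPM1 encodes FOG1, the cofactor of GATA1, and its motif lay on the plus strand at chr16:88522132-88522177. FOXO3, a forkhead factor active in late red cell maturation, had it on the minus strand at chr6:108884145-108884190, and KLF3, a repressor of the Krüppel-like family, on the minus strand at chr4:38669014-38669059. TMOD1, which caps actin filaments of the membrane skeleton, had it on the plus strand at chr9:100265723-100265768, and AQP1, a water channel, on the plus strand at chr7:30954888-30954933.
ZFPM1: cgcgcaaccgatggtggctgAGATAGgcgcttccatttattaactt
FOXO3: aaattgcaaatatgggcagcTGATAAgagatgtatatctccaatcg
KLF3: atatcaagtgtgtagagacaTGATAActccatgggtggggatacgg
TMOD1: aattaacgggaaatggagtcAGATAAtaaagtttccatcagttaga
AQP1: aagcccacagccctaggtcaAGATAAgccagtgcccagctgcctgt

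The other kind of sequence was guanine-rich. A G4 motif was taken as 4 guanine runs, each of 3 or more bases, whose connecting loops span 1 to 7 bases, and the motifs below, with the guanine runs in capitals, come from wide members. ARRDC3, an arrestin-like adaptor protein, had it on the minus strand at chr5:90676837-90676854. SELPLG, the ligand of P-selectin, had it on the minus strand at chr12:109023038-109023065, BICRAL, a SWI/SNF subunit, on the plus strand at chr6:42751156-42751174, and SMIM1, the carrier of the Vel blood group, on the minus strand at chr1:3691909-3691932.
ARRDC3: GGGcgcGGGcGGGtGGGG
SELPLG: GGGagtgaGGGGtttctGGGGttgaGGG
BICRAL: GGGatattGGGtGGGgGGG
SMIM1: GGGGctgcagcGGGaGGGGcGGGG
In BICRAL a guanine, in lower case, serves as the last loop. The motif lay on the coding strand of the first 3 genes and on the template strand of SMIM1.

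Peaks were about as dense after the gene start as before it. Divided by the sequence in which a midpoint could meet each rule, members numbered 21.9 per Mb (interval 20.7 to 23.2) over 57.2 Mb, and upstream mirror peaks 21.4 per Mb (20.2 to 22.6) over 62 Mb. The rate ratio was 1.03 (0.950 to 1.11, two-sided exact conditional binomial test, adjusted p = 0.557). Within 1 to 3 kb the ratio was 1.11 (1.01 to 1.23, exact test, unadjusted p = 0.0352). Deep intragenic peaks numbered 5.62 per Mb (5.47 to 5.76) over 1059 Mb. Members were 3.91-fold denser than these (3.67 to 4.15), and 2.99-fold (2.81 to 3.18) when positions of like GC content were compared. The comparison with deep intragenic peaks was added after the data had been seen.

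Density fell with distance on both sides of the gene start. Between 1 and 1.5 kb downstream there were 41.0 members per Mb (35.9 to 46.7), between 2 and 2.5 kb 25.8 (22.3 to 29.8), and between 4 and 4.5 kb 13.2 (10.7 to 16.1). The last bin, 4.5 to 5 kb, held 16 per Mb (13.3 to 19.2), so that density at the far end was still above the deep intragenic level. Members were 1.77-fold denser at 1 to 3 kb than at 3 to 5 kb (1.58 to 1.99, exact conditional binomial test, adjusted p = 3.99e-23). Upstream the same ratio was 1.46 (1.31 to 1.63, exact test, adjusted p = 1.57e-11). Whether the fall was steeper downstream was not tested.

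**Figure D1:**
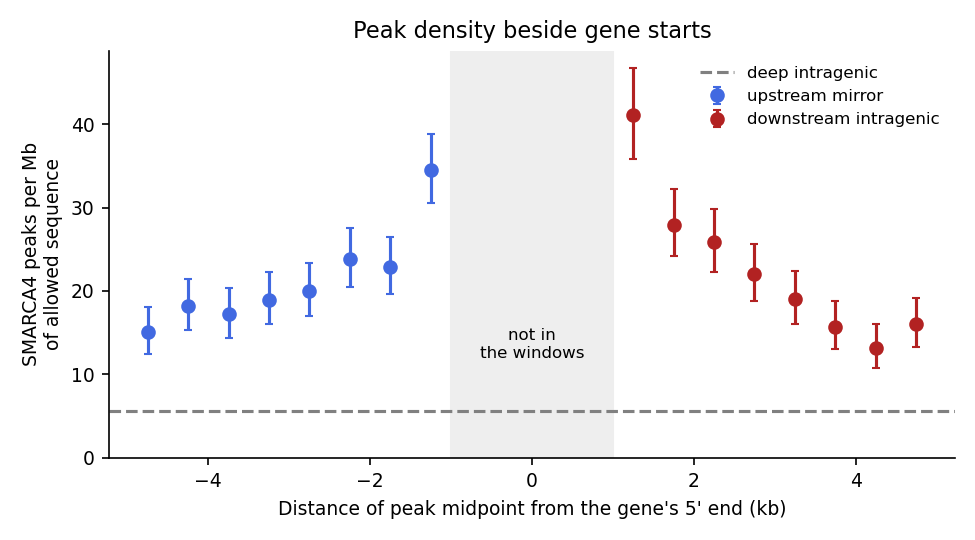
SMARCA4 peaks per Mb of allowed sequence (vertical axis) in 500-bp bins of distance from the gene's 5' end (horizontal axis, kb), upstream in blue and downstream in red, with exact Poisson 95% intervals as bars and the deep intragenic density as a dashed line. The downstream points fall from 41.0 per Mb next to the promoter to 13.2 at 4 to 4.5 kb, and all points lie above the deep level of 5.62.

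Most members lay in the first intron. By the canonical transcript of the host gene, 757 members (60.3%) were in intron 1, 207 (16.5%) in a later intron, 61 (4.86%) in an exon outside coding sequence, 220 (17.5%) between the gene's 5' end and a canonical start further in, and 11 (0.876%) past the canonical end. Intron 1 also made up 54.3% of the allowed sequence. Per Mb, intron 1 held 24.4 members (22.7 to 26.2) and later introns 13.8 (11.9 to 15.8). The other positions were at or above the density of intron 1, with 29.9 (22.9 to 38.4) in exons outside coding sequence, 25.1 (21.9 to 28.6) before the canonical start and 36.4 (18.2 to 65.2) past the canonical end. The ratio of intron 1 to later introns was 1.77 (1.52 to 2.08, exact conditional binomial test, adjusted p = 5.62e-14). Later introns lie further from the start, and within 500-bp bins of distance the ratio was 1.55 (1.33 to 1.81), an alternative added after the data had been seen. Within classes of GC content it was 1.97 (1.68 to 2.30).

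**Figure D2:**
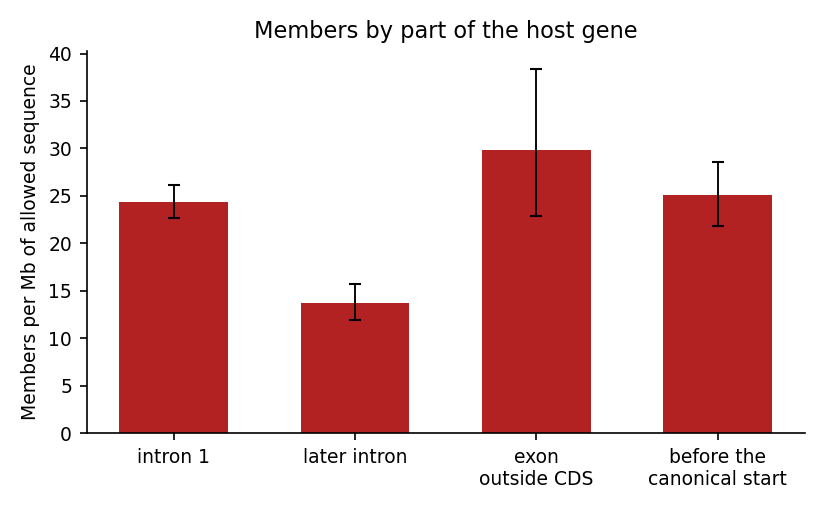
Members per Mb of allowed sequence (bars from 0, with exact Poisson 95% intervals) by the position of the midpoint in the canonical transcript of the host gene. Intron 1 holds 24.4 per Mb and later introns 13.8, and the 11 members past the canonical end are not drawn.

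Members were narrow and closely spaced. Their median width was 315 bp (297 to 329), beside 336 bp for upstream mirror peaks, 345 bp for deep intragenic peaks, 432 bp for peaks within 1 kb of a gene start and 368 bp for the whole list. At least as wide as the list median were 40.5% of members, 45.2% of mirror peaks (odds ratio 0.827, 0.708 to 0.967, Fisher's exact test, adjusted p = 0.0267) and 45.9% of deep peaks (odds ratio 0.804, 0.710 to 0.910, adjusted p = 0.000901). Peaks narrower than 200 bp made up 24.2% of members, 17.7% of mirror peaks and 15.8% of deep peaks. Without these the odds ratio against mirror peaks was 0.946 (0.793 to 1.13, Fisher's exact test, unadjusted p = 0.559). Against deep peaks it was 0.877 (0.762 to 1.01, Fisher's exact test, unadjusted p = 0.0695), and both calls were lost. This setting removes peaks by their width, so it cannot decide whether members are narrower. With peaks up to 500 bp apart merged, the odds ratio against mirror peaks was 0.881 (0.738 to 1.05, Fisher's exact test, unadjusted p = 0.163), and the call was lost. Against deep peaks the merged odds ratio was 0.843 (0.734 to 0.969, Fisher's exact test, unadjusted p = 0.0171), and the call was kept. The gap to the next peak had a median of 1231 bp for members, 1523 bp for mirror peaks and 10078 bp for deep peaks. Another peak lay within 1 kb of 44.2% of members, 39.7% of mirror peaks and 15.8% of deep peaks. The share was 45.1% in peaks within 1 kb of a gene start and 32.6% in the whole list, so close spacing was not particular to members.

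In base composition members stood between promoter peaks and deep intragenic peaks. The median GC content of the central 400 bp was 48.0% in members, 48.5% in mirror peaks, 44.8% in deep peaks and 66.5% in peaks within 1 kb of a gene start. A CpG-rich centre, with at least 50% GC and an observed to expected CpG ratio of at least 0.6, was found in 162 members (12.9%, 11.2 to 14.9%) and in 2.44% of all 200-bp-spaced positions of the allowed downstream sequence. The share was 13.8% in mirror peaks (odds ratio 0.923, 0.736 to 1.159, Fisher's exact test, adjusted p = 0.557), 3.70% in deep peaks (odds ratio 3.86, 3.12 to 4.77, adjusted p = 1.71e-31) and 83.4% in promoter peaks. When the whole peak, and not its midpoint alone, had to lie over 1 kb from starts, the odds ratio against mirror peaks was 0.735 (0.561 to 0.962, Fisher's exact test, unadjusted p = 0.0256).

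A G4 motif lay inside 169 members (13.5%, 11.7 to 15.5%), 13.7% of mirror peaks, 6.94% of deep peaks, 42.4% of promoter peaks and 23.4% of the whole list. Of the 200-bp windows of the allowed downstream sequence 3.64% held one, whereas members differ in width. Members and mirror peaks did not differ by the test (odds ratio 0.976, 0.779 to 1.22, Fisher's exact test, adjusted p = 0.863). Against deep peaks the odds ratio was 2.08 (1.72 to 2.52, Fisher's exact test, adjusted p = 1.24e-12), and among peaks of like GC content 1.19 (0.951 to 1.48), an interval that holds 1. Of the 246 motifs in members, 138 (56.1%, 49.7 to 62.4%) were on the coding strand of the host gene (two-sided exact binomial test against equal shares, unadjusted p = 0.0642). Outside peaks in the same windows 7130 of 13222 motifs (53.9%) were on the coding strand, and the odds ratio was 1.09 (0.847 to 1.41, Fisher's exact test, unadjusted p = 0.519).

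GATA was the most frequent of the transcription factor motifs in members. It was searched as GATA with A or T before it and A or G after it, on both strands of the central 200 bp, and it occurred in 570 members (45.4%, 42.6 to 48.1%). In 200-bp windows spaced through the allowed downstream sequence 30.3% held it. The share was 46.6% in mirror peaks (odds ratio 0.952, 0.815 to 1.11, Fisher's exact test, adjusted p = 0.812), 68.0% in deep peaks (odds ratio 0.392, 0.346 to 0.443, adjusted p = 1.32e-48) and 11.5% in promoter peaks. Among peaks of like GC content the odds ratio against deep peaks was 0.480 (0.420 to 0.548). The adjustment of these Fisher p-values, by Benjamini and Hochberg, ran over 22 motif tests.

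The composite of an E-box part and GATA, a GATA motif preceded by CTG and 7 or 8 bases and so also counted as GATA, occurred in 120 members (9.55%, 8.05 to 11.3%). It occurred in 1.37% of the windows, 9.44% of mirror peaks and 17.8% of deep peaks (odds ratio against deep peaks 0.487, 0.399 to 0.595, Fisher's exact test, adjusted p = 2.34e-13). The AP-1 motif, TGANTCA with C or G as the middle base, occurred in 159 members (12.7%, 10.9 to 14.6%) and in 3.04% of the windows. Mirror peaks held it in 15.3% (odds ratio 0.800, 0.640 to 1.00, Fisher's exact test, adjusted p = 0.197) and deep peaks in 20.3% (odds ratio 0.570, 0.477 to 0.681, adjusted p = 4.05e-10). The full E-box CAGCTG occurred in 14.9% of members, 7.87% of the windows and 15.9% of deep peaks. RUNX, searched as TGTGGTTT, occurred in 1.91% of members, 2.76% of deep peaks and 1.34% of the windows. In the central 200 bp the odds ratio against deep peaks was 0.927 for the E-box (Fisher's exact test, adjusted p = 0.765) and 0.687 for RUNX (Fisher's exact test, adjusted p = 0.298). Counted over the whole peak, it was 0.800 for the E-box (0.691 to 0.927, Fisher's exact test, unadjusted p = 0.00277) and 0.611 for RUNX (0.433 to 0.862, Fisher's exact test, unadjusted p = 0.00358). Members were narrower than deep peaks, so whole-peak counts search less of their sequence. GATA and AP-1 occurred together in 68 members (5.41%), GATA alone in 502 (39.97%) and AP-1 alone in 91 (7.25%). Neither was found in 595 members (47.4%, 44.6 to 50.1%), in 45.2% of mirror peaks and in 23.6% of deep peaks.

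Motifs of promoters were less frequent in members than in promoter peaks. The SP/KLF motif GGGCGG occurred in 202 members (16.1%, 14.2 to 18.2%), 17.1% of mirror peaks, 8.35% of deep peaks, 57.8% of promoter peaks and 5.07% of the windows. Against deep peaks the odds ratio was 2.102 (1.76 to 2.51, Fisher's exact test, adjusted p = 1.97e-14), and 1.19 (0.960 to 1.47) among peaks of like GC content. A run GGGGG occurred in 39.6% of members, 26.7% of deep peaks and 22.8% of the windows. The ETS motif CCGGAAGT occurred in 7 members (0.557%), 4.84% of promoter peaks and 0.107% of the windows, and the YY1 core ATGGCGG in 13 members (1.04%), 6.60% of promoter peaks and 0.556% of the windows. The NRF1 motif occurred in 0 of 1256 members, 1.19% of promoter peaks and 0.00349% of the windows. The 0 allows a share of up to 0.239% when 3 counts are taken as the limit and 0.305% by the Wilson interval. With so low a share of the windows, the 0 is not read as a depletion. CTCF, the insulator protein, had its motif in 39 members (3.11%, 2.28 to 4.22%), 3.93% of mirror peaks, 2.32% of deep peaks and 0.300% of the windows. Over the whole peak its odds ratio against deep peaks was 1.43 (1.05 to 1.95, Fisher's exact test, unadjusted p = 0.0284). None of the 11 motifs differed between members and mirror peaks after adjustment, and of the unadjusted p-values the smallest was 0.0539, for AP-1. Among peaks of like GC content the AP-1 odds ratio was 0.791 (0.630 to 0.992), and GATA motifs counted over the whole peak gave 0.842 (0.720 to 0.984, Fisher's exact test, unadjusted p = 0.0319). The whole-peak count searches less sequence in members, whose median width was 315 bp beside 336 bp for mirror peaks.

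**Figure D3:**
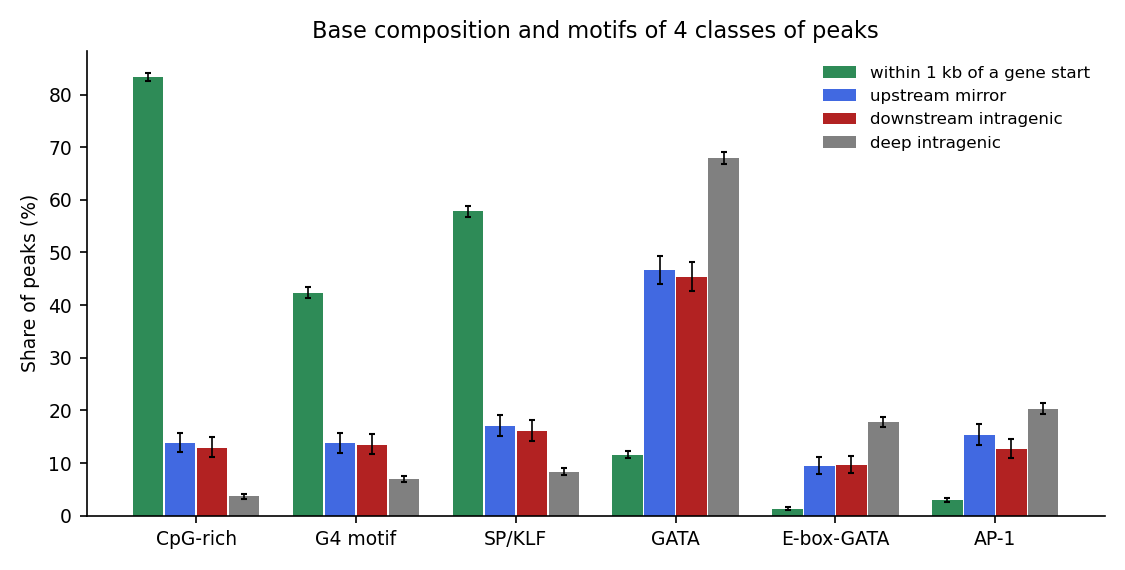
Share of peaks (vertical axis, %) that were CpG-rich, held a G4 motif or held 1 of 4 factor motifs, in promoter peaks (green), upstream mirror peaks (blue), members (red) and deep intragenic peaks (grey), with Wilson 95% intervals. Members and mirror peaks have overlapping intervals in each group, as for GATA with 45.4% and 46.6%, and both lie between promoter and deep peaks.

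Composition changed through the window. Between 1 and 1.5 kb from the gene's 5' end 26.0% of members (20.7 to 32.1%) were CpG-rich and 32.6% (26.8 to 38.9%) held a GATA motif. Between 2 and 2.5 kb the shares were 11% and 50.8%, and between 4.5 and 5 kb 9.32% and 54.2%. The GATA share did not rise steadily, being 47.0% at 2.5 to 3 kb, 72 of 144 members at 3 to 3.5 kb, 47.5% at 3.5 to 4 kb and 44.9% at 4 to 4.5 kb. The CpG-rich and the other members therefore differed in position, with a median distance of 1810.5 bp for the 162 CpG-rich members and 2641 bp for the other 1094. A G4 motif lay in 40.1% of the CpG-rich members (32.9 to 47.8%) and 9.51% of the others (7.91 to 11.4%). A GATA motif lay in 10.5% of the CpG-rich members (6.66 to 16.2%) and 50.5% of the others (47.6 to 53.5%). Both motifs share letters with the definition of the groups, since G4 motifs need guanines and GATA motifs adenine and thymine, so these shares are given as a description.

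**Figure D4:**
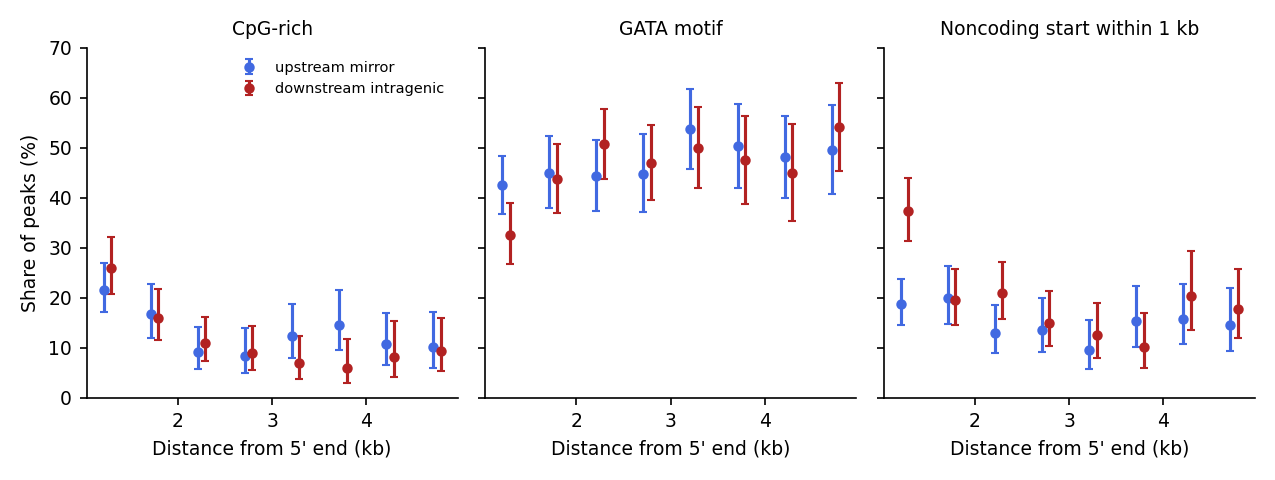
Share of peaks (vertical axis, %) that were CpG-rich, held a GATA motif or lay within 1 kb of a noncoding transcript start, by distance from the gene's 5' end (horizontal axis, kb), upstream in blue and downstream in red, with Wilson 95% intervals. Downstream, the CpG-rich share is highest and the GATA share lowest in the bin next to the promoter, at 26.0% and 32.6%. A noncoding start is that of any transcript not annotated as protein-coding.

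The rule kept members away from protein-coding starts but not from starts of other transcripts. These noncoding starts are those of all transcripts not annotated as protein-coding. They include models of coding genes, such as those with a retained intron or without a defined coding sequence. Within 1 kb of such a start lay 259 members (20.6%, 18.5 to 22.9%), 15.5% of mirror peaks (odds ratio 1.42, 1.158 to 1.74, Fisher's exact test, adjusted p = 0.0011) and 8.91% of deep peaks (odds ratio 2.66, 2.256 to 3.13, adjusted p = 1.21e-28). When the whole peak had to lie over 1 kb from protein-coding starts, the odds ratio against mirror peaks was 1.09 (0.865 to 1.37, Fisher's exact test, unadjusted p = 0.478). Between 1 and 1.5 kb from the gene's 5' end the share near noncoding starts was 37.4% in members and 18.7% in mirror peaks. In the other 500-bp bins it was 10.2 to 20.9% in members and 9.66 to 20% in mirror peaks. More of the downstream sequence lies near such starts, 11.6% of it beside 7.61% upstream. Density near them was 39.0 members per Mb, and 19.7 elsewhere in the downstream windows. Upstream the densities were 43.5 and 19.5 per Mb, and the difference between the sides near such starts was not tested per Mb. For 140 of the 259 members a transcript of the host gene not annotated as protein-coding started there. For 98 it was a transcript on the opposite strand and for 88 a long noncoding RNA, with some members counted under more than 1 heading. Of the 205 mirror peaks near a noncoding start, 147 had a long noncoding RNA, 146 a start on the opposite strand and 0 a transcript of the host gene. A gene record begins at its outermost transcript start, so no transcript of the host gene can start upstream of it. The odds ratio against mirror peaks is thus partly set by the rule.

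Of the 19485 protein-coding genes with allowed downstream sequence, 1098 had a member (5.64%). Of the 20107 with allowed upstream sequence, 1393 had a mirror peak (6.93%). In counts of genes, here and below, mirror peaks are all peaks meeting the upstream rule, members that also met it included. A single member was found in 945 genes, 2 in 117, 3 in 31, 4 in 4 and 5 in 1. Some members served several genes: 243 also lay 1 to 5 kb upstream of another gene and 7 lay in windows of both strands, and each member was assigned to the gene with the nearest 5' end, which gave 1063 host genes. A promoter peak, with its midpoint within 1 kb of the gene's 5' end, was present in 801 of the 1098 genes with a member (73.0%) and in 7408 of the 18387 other genes (40.3%). The odds ratio was 3.997 (3.49 to 4.58, Fisher's exact test, adjusted p = 1.08e-99). For mirror peaks the shares were 70.5% and 39.2% (odds ratio 3.71, 3.29 to 4.18). Read the other way, 9.76% of genes with a promoter peak (9.13 to 10.4%) and 2.63% of genes without (2.35 to 2.95%) had a member. A promoter peak was present in the host of 920 members, and the gap to it had a median of 1714.5 bp. Of all 1256 members 108 (8.60%) lay within 500 bp of it. For mirror peaks, counted by peak, the median gap was 1715 bp, and 136 of 1324 (10.3%) lay within 500 bp.

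The widest members covered genes of several kinds. PPP1R10, a regulatory subunit of protein phosphatase 1, held the widest, 3480 bp at chr6:30582272-30585751 with its midpoint in a later intron. No peak midpoint lay within 1 kb of the gene's 5' end, but the edge of this member did. IER2, an immediate early gene, followed with 3331 bp at chr19:13263609-13266939. ARRDC3 had 2562 bp at chr5:90675518-90678079, with its midpoint in intron 1, 62% GC at its centre and 3 G4 motifs. FTH1, the heavy chain of the iron store ferritin, had 2007 bp at chr11:61730477-61732483, with its midpoint past the end of its canonical transcript. It held no G4 motif, and no GATA motif in its central 200 bp. SELPLG had 1951 bp at chr12:109022185-109024135, again in a gene with no promoter peak. BICRAL had 1783 bp at chr6:42750236-42752018, with 74.0% GC and 7 G4 motifs, 5 of them on the coding strand. TNFRSF12A, the receptor of the cytokine TWEAK, had 1763 bp, TMEM219 1714 bp, INTS6L 1662 bp and SMIM1 1593 bp with 4 G4 motifs, all on the template strand. Of these 10 members 7 held a G4 motif, counted over the whole peak, and 3 lay in intron 1. A GATA motif, counted in the central 200 bp, was in 3. Over all members the shares were 13.5% for the G4 motif, 60.3% for intron 1 and 45.4% for GATA. H2BC21 had a member as wide as that of SMIM1, 1593 bp, with 1 G4 and 1 GATA motif, and is not among the 10. A wide member has more sequence in which a G4 motif can lie.

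Genes with the most members had 4 or 5 midpoints in 1 window, so their close spacing follows from the choice of genes. With peaks up to 500 bp apart merged, the members numbered 994 in place of 1256. CD70, the ligand of the T cell receptor CD27, had 5 members at 1150, 1683, 2248, 2795 and 3877 bp from its 5' end, of 211, 407, 267, 351 and 238 bp. All 5 lay before the canonical start and 3 of them held a GATA motif. KDM6B, a histone H3 lysine demethylase, had 4 members in intron 1 of 235, 379, 594 and 345 bp, and 3 of these lay near starts of long noncoding RNAs. NCR3LG1, the ligand of the natural killer receptor NKp30, had 4 members of 109, 23, 392 and 236 bp. TRAPPC10, of the vesicle tethering complex TRAPP, had 4 members of 146, 85, 212 and 213 bp, none with a GATA or G4 motif. DYNC2I1, of the ciliary motor dynein-2, had 4 members of 608, 270, 348 and 819 bp, 3 of them with a GATA motif. Of these 21 members 16 lay in intron 1 and 6 were at least as wide as the list median, beside 60.3% and 40.5% of all members.

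Among 8 gene lists, written with earlier results on these peaks known, the heme list stood highest. A member was present in 5 of its 15 genes (33.3%), beside 5.64% of all genes with allowed sequence and 9.76% of those with a promoter peak, and 12 of the 15 (80.0%) had a promoter peak. The genes were ALAS2, FECH, ABCB10, FLVCR1 and BLVRB, and 3 genes of the list had a mirror peak. Of all genes with allowed upstream sequence 6.93% had a mirror peak, a share to be set beside each list below as well. ALAS2 had no promoter peak, and the nearest peak to its member was 12458 bp away. FECH had a member of 881 bp at chr18:55250333-55251213, 3.191 kb from its 5' end, and ABCB10 had 1 of 1065 bp at chr1:229690473-229691537. FLVCR1 had a pair of members 37 bp apart, of 275 bp at chr1:213033519-213033793 and 761 bp at chr1:213033831-213034591. BLVRB, biliverdin reductase B, had 214 bp at chr19:40969610-40969823. All 6 members lay in intron 1, 5 held a GATA motif and 4 the composite printed above, and their median width was 611.5 bp. Over all members these shares were 60.3%, 45.4% and 9.55%, and the median width was 315 bp.

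Erythroid transcription factors had a member in 7 of 24 genes (29.2%) and a mirror peak also in 7. The genes were ZFPM1, KLF3, FOXO3, MYB, E2F2, ZBTB7A and KLF13, each with a promoter peak, while GATA1, TAL1, KLF1 and NFE2 had none in this window. ZFPM1 had 1192 bp at chr16:88521627-88522818, with 69.8% GC, 2 GATA motifs and 4 G4 motifs. KLF3 had members of 216 and 637 bp, the second at chr4:38668791-38669427 with a GATA motif. FOXO3 had 357 bp at chr6:108883925-108884281. MYB, which keeps progenitors dividing, had 348 bp at chr6:135504970-135505317 without a GATA motif, and E2F2, a cell cycle factor, had 342 bp at chr1:23854750-23855091 with 2 G4 motifs. All 8 members lay in intron 1, 3 held a GATA motif and none the composite, beside 60.3%, 45.4% and 9.55% of all members.

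Red cell membrane and skeleton genes had a member in 5 of 29 (17.2%) and a mirror peak in 8. SLC4A1 had 990 bp at chr17:42343659-42344648, 1.355 kb from its 5' end, with 2 GATA motifs and the composite. No midpoint lay within 1 kb of that 5' end, although the edge of this member did. TMOD1 had 924 bp at chr9:100265292-100266215 with 2 GATA motifs, and AQP1 643 bp at chr7:30954553-30955195 with 1 GATA motif, 1 G4 motif and no promoter peak. RHCE, of the Rh blood group, had 365 bp and GYPC, glycophorin C, 244 bp with 1 AP-1 motif and no GATA motif. Over the 3 erythroid lists 18 of 19 members lay in intron 1, 11 held a GATA motif and 5 the composite, beside 60.3%, 45.4% and 9.55% of all members.

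The other lists ran from 26.1% of their genes to near the background. Signal feedback genes had a member in 6 of 23 (26.1%) and a mirror peak in 2. PIM1, PIM2 and PIM3, kinases of cytokine signalling, each had members. PIM1 had 769 and 884 bp at chr6:37139717-37140485 and chr6:37141504-37142387. PIM3 had 98, 3 and 629 bp, the 3-bp region being the narrowest member. SPRED1 and SPRED2, inhibitors of Ras signalling, had 496 and 503 bp, and DUSP5, a phosphatase of ERK, 329 bp with 1 AP-1 motif. None of the 9 members held a GATA motif, and 3 lay in intron 1, beside 45.4% and 60.3% of all members. SWI/SNF subunits had a member in 7 of 28 genes (25%) and a mirror peak in 3. Beside BICRAL these were ARID1B with 565 bp at chr6:157101387-157101951, SS18L1 with 304 bp, SMARCC1 with 297 bp, PHF10 with 296 bp, ARID1A and PBRM1, whose member was assigned to the neighbouring gene GNL3. SMARCA4 itself had none.

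Progenitor and myeloid factors had a member in 3 of 18 genes (16.7%) and a mirror peak in 4 of 20. The genes with a member were KLF6 with 363 bp, BCL6 with 255 bp and SPI1, the myeloid factor PU.1, with 232 bp in a later intron. Among megakaryocyte and platelet genes 1 of 16 had a member (6.25%), TUBB1 with 552 bp at chr20:57595966-57596517, 2 GATA motifs and the composite, and 3 of 18 had a mirror peak. Cytosolic ribosomal protein genes had a member in 6 of 74 (8.11%), although 90.5% of them had a promoter peak, and a mirror peak in 3 of 76. Among them were RPS29 with 714 bp, RPL6 with 505 bp and RPL3 with 417 bp. None of the 6 members lay in intron 1 while 4 held a GATA motif, beside 60.3% and 45.4% of all members. The lists hold few genes each, and no test was run on them.

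**Figure D5:**
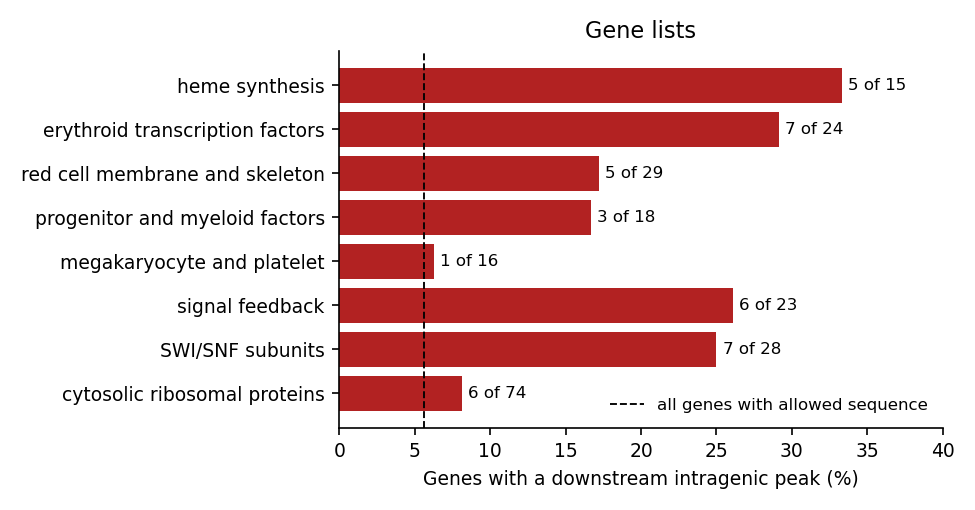
Share of genes with a member (horizontal axis, %) in the 8 gene lists, with the numbers of genes beside the bars and the share of all genes with allowed sequence, 5.64%, as a dashed line. The heme list reaches 33.3%, while the platelet and ribosomal lists lie near the line at 6.25% and 8.11%.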

How the data were processed

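SMARCA4 ChIP-seq of K562 cells was measured in 3 ChIP and 3 input libraries. The authors trimmed reads, aligned them to hg19 with BWA, removed duplicates, called peaks per replicate with MACS2 against input and deposited a pooled list of regions found in at least 2 of 3 replicates, whose values are start and end positions in bp with no other unit. Depth is not in the list, so precision rests on the number of peaks. Regions were set on the hg19 sequence and GENCODE release 44 mapped to that build (254376 transcripts, 89204 protein-coding). Midpoints decided membership, and a position meeting both rules counted as downstream, except in counts of genes with a mirror peak. Python 3.11.15, numpy 2.4.6, scipy 1.17.1 and matplotlib 3.10.9 were used. Rates were compared by exact conditional binomial tests and shares by Fisher's exact test with Woolf intervals, two-sided, with Wilson intervals for single shares and Benjamini-Hochberg adjustment over 17 tests and, separately, 22 motif tests. Values for like GC content were stratified by the Mantel-Haenszel method in 2-point GC classes. Statistics were tested on simulated data. Named genes were hosts of the 10 widest members, the 5 genes with most members and, per list, up to 5 genes by member width, with some other list genes named by symbol and some not reported here. Members, lists and tests were chosen with earlier results of these data known. Alternatives were narrow peaks left out, neighbours merged, autosomes only, other windows, starts, placements and loop lengths.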

Additional observations from a re-analysis of the deposited data

How the results depend on the processing

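No paired analysis was possible because the list pools the replicates and gives no value per replicate, and for the same reason no replicate could be left out and no stricter peak threshold applied. The ratio of downstream to upstream density crossed 1 with peaks of at least 200 bp (0.945), with peaks up to 500 bp apart merged (0.988), without positions meeting both rules (0.990) and by GC class (0.997), and passed the test only for 1 to 3 kb (1.11). The width odds ratio against mirror peaks lost its call with peaks of at least 200 bp (0.946) or merged (0.881). Against deep peaks it lost its call with peaks of at least 200 bp (0.877) and kept it when merged (0.843). The 200-bp setting itself removes peaks by width. For CpG-rich centres against mirror peaks the odds ratio was 1.12 for 1 to 3 kb, 1.01 without positions meeting both rules and 0.735, past the threshold, with whole peaks under the rule. For G4 motifs against mirror peaks it was 1.00 with peaks of at least 200 bp, 1.05 for 1 to 3 kb, 1.01 with loops of up to 12 bases and 1.22 in the central 200 bp, and against deep peaks 1.19 by GC class, no longer past the threshold. Proximity to noncoding starts against mirror peaks fell to 1.09 with whole peaks under the rule. The G4 strand odds ratio was 0.979 with loops of up to 12 bases. Uncalled motif odds ratios crossed 1 against mirror peaks for E-box-GATA (0.997 by GC class and 0.998 in the whole peak) and, in the whole peak, E-box (0.880), RUNX (0.952), ETS (0.958) and the guanine run (0.905), and against deep peaks by GC class for CTCF (0.995) and YY1 (0.943). Counted over the whole peak, E-box (0.800), RUNX (0.611) and CTCF (1.43) passed the unadjusted threshold against deep peaks and GATA (0.842) against mirror peaks, while SP/KLF against deep peaks lost its call by GC class (1.19) and AP-1 against mirror peaks gained it (0.791). Members were narrower, so whole-peak counts search less of their sequence, and the cause of these changes was not tested. In all 146 alternatives were computed, of which 114 kept direction and side of the threshold.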
